A study of Mus musculus with 6 samples.

Results

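The 31 genes described here carry cholesterol through a liver cell: 18 enzymes that build it, 4 regulators that sense it, 5 genes of its uptake and movement inside the cell, a pair of esterification enzymes, the exporter gene Abca1, and Nus1, which diverts an intermediate of the pathway to dolichol. They were chosen by symbol for their place in the pathway, with earlier results of these data known, and all 31 were found among the 16426 genes listed in at least 1 library. RNA was sequenced from 6 whole mouse livers, 3 from animals injected in the tail vein with the adeno-associated virus AAV8 encoding a scramble hairpin (shRNA, a short RNA that silences by matching its target) and 3 with AAV8 encoding a hairpin against S1pr2, a receptor for the lipid sphingosine-1-phosphate. The mice were of a mixed B6:sv129 background and 7 to 12 weeks old. The series text describes male wild-type mice that drank the synthetic glucocorticoid dexamethasone, at about 0.84 mg/kg for 7 days. No sample label names that treatment, both groups are taken to share it, and no group without it was analysed here. The livers are called scramble livers 1 to 3 and knockdown livers 1 to 3. Only the hairpin differs by label, so effects of the lower S1pr2 transcript and other effects of the hairpin cannot be told apart.

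Cholesterol is made from acetyl-CoA in the endoplasmic reticulum and cytosol. The mevalonate steps produce the isoprenoid farnesyl diphosphate, a pair of farnesyl units is joined to squalene, squalene is closed to lanosterol, and lanosterol is demethylated, reduced and isomerised to cholesterol. When membrane sterol is low, SCAP escorts SREBP-2, the product of Srebf2, to the Golgi, where it is cut into an active transcription factor that binds sterol regulatory elements next to NF-Y and Sp1 sites. INSIG proteins hold SCAP back when sterol is plentiful. Liver X receptors act in the opposite situation and switch on export genes such as Abca1.

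Sequence upstream of the start site is shown for the 4 genes that fell. Hmgcs1 is shown beside them because it was the only gene of the set whose window held the sterol regulatory element letters given below. RefSeq windows on GRCm38.p6, reaching from 250 bases before to 50 after the start, were found for 24 of the 31 genes (30 windows); Fdps, Fdft1, Sqle, Scarb1, Npc1, Stard4 and Soat2 had none. The expression tables were made on mm9, so these coordinates do not belong to them. The 250 bases before the start are printed in the direction of the gene. Capitals mark the letters TCACNCCAC, a form of the sterol regulatory element, and the NF-Y box CCAAT, both in either orientation (CCAAT reads ATTGG on the other strand). The lines give Hmgcs1 (chr13:119690101-119690350, plus strand), Dhcr7 (chr7:143829964-143830213, plus strand, 1 of its 3 windows), Hsd17b7 (chr1:169969206-169969455, minus strand), Nus1 (chr10:52417297-52417546, plus strand) and Abca1 (chr4:53159896-53160145, minus strand).
Hmgcs1: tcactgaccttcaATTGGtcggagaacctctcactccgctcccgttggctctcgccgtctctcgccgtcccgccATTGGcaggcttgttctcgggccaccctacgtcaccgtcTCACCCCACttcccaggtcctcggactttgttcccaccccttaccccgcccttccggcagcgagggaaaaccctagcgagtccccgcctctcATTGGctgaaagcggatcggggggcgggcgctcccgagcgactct
Dhcr7: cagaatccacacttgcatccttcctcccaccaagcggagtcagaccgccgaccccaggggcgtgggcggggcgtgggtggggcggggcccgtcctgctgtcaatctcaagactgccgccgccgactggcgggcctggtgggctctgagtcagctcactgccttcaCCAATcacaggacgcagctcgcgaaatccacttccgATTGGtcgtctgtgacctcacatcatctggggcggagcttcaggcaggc
Hsd17b7: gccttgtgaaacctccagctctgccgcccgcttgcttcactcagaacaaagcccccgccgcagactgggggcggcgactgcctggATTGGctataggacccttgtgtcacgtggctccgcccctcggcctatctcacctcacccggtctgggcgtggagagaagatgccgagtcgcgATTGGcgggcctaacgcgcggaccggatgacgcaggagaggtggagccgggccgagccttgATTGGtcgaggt
Nus1: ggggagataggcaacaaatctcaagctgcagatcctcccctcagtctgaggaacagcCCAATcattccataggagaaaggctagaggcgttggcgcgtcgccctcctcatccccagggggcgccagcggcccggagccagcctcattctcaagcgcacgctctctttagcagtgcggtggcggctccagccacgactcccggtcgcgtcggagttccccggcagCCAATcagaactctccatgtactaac
Abca1: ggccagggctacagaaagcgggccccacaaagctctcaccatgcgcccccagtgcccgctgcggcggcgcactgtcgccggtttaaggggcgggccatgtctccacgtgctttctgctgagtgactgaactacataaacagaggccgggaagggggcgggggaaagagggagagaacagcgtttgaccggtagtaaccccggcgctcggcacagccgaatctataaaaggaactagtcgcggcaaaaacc
In this stretch Hmgcs1 held TCACCCCAC, beginning 137 bases before the start, and CCAAT boxes beginning 237, 176 and 45 bases before it. Hsd17b7 held boxes at 165, 73 and 12 bases, Dhcr7 at 85 and 49, and Nus1 at 193 and 26. The other 2 Dhcr7 windows held no CCAAT, and the one with boxes was chosen for printing. The Abca1 stretch held neither motif.

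The NF-Y box was common across the gene set. CCAAT was found on either strand in 21 of the 24 genes with a window (87.5%), against 42.94% of the 9801 tested genes with a window and 41.06% of all 27025 genes of the promoter table. Among the 15 synthesis enzymes with a window, 14 held it (93.33%), Acat2 being the exception. TCACNCCAC was found in Hmgcs1 alone (4.17% of 24 genes), against 1.44% of the tested genes. The Sp1 box GGGCGG occurred in 91.67% of the genes, against 67.3% of tested genes. The E box CACGTG occurred in 25.0% against 11.7%. These shares describe letters in a short window and carry no test, and a window without a motif says only that the letters are not there.

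Expression was measured as RSEM expected counts, with 16558775 to 17410160 counts per library, and is given below as CPM, counts scaled to library size by the trimmed mean of M-values. The test was the edgeR quasi-likelihood test on 12230 genes with Benjamini-Hochberg adjustment, and a gene is said to rise or fall in the knockdown livers only when its adjusted p was under 0.05. Values are mean ± SD over n = 3 livers, and SE belongs to the log2 fold change. The labels do not state that replicates are separate animals, so a p-value here speaks of the spread among these 6 libraries. Values in a row of 3 are always those of livers 1, 2 and 3. S1pr2, the target of the hairpin, had 4.41, 5.23 and 6.66 CPM in the scramble group against 3.04, 2.20 and 2.22 CPM in the knockdown group. It fell (log2 fold change -1.12, SE 0.24, adjusted p = 0.0301) to 45.8% of the scramble mean, and an exact two-sided permutation test over the 20 assignments of livers gave p = 0.1, the smallest 3 against 3 allow. Leaving out 1 liver ended that call for scramble livers 2 and 3 (adjusted p = 0.0785 and 0.0962) and for knockdown livers 2 and 3 (0.117 and 0.101).

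The livers also differed in other tissue markers. All 10 hepatocyte markers were tested and none passed. Their summed level ran from 135000 to 161000 CPM in the scramble and from 79900 to 121000 CPM in the knockdown livers, with up to 129000 CPM from 1 gene. Of 9 endothelial markers 4 rose, where 3.02% of all tested genes did, and their sum was 232 to 263 CPM against 290 to 318 CPM. None of 8 macrophage markers passed (112 to 200 against 149 to 302 CPM), nor did any of 7 stellate (190 to 441 against 296 to 475 CPM) or 5 cholangiocyte markers (27.7 to 54.5 against 45.2 to 105 CPM). Knockdown liver 1 had the lowest hepatocyte sum and the highest macrophage, stellate and cholangiocyte sums. Lymphocyte and neutrophil markers summed to at most 2.34 CPM in any liver, and the neutrophil marker Ly6g was listed in none. No marker that was listed stood at 0 in all 6 livers. In whole tissue, fewer cells of a type and less RNA per cell cannot be told apart, and the part these shifts have in the results below was not tested.

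All 31 genes passed the count filter. Of these, 4 fell, 1 rose and 26 did not pass, against a background of 4.64% of tested genes that fell and 3.02% that rose. Dhcr7, Hsd17b7, Abca1 and Nus1 fell, and Soat2 rose. Before adjustment, 14 had p under 0.05 in the lower and 1 in the higher direction, against 1581 and 1411 of all tested genes. In 12 of the 31 genes every knockdown liver lay below every scramble liver, against 16.8% of tested genes, and in Npc1 and Soat2 every knockdown liver lay above, against 15.1%. The log2 fold change was below 0 in 24 genes and above 0 in 7, from -2.14 for Fdps to 0.79 for Soat2. Over all 12230 tested genes it was below 0 in 5947 and above 0 in 6283. The median of the 31 genes was -0.53, where that of all tested genes was 0.01. The share that fell is above the background, but it rests on 4 genes of a set chosen with earlier results known. The number that fell was 7 without knockdown liver 2, 2 without scramble liver 3 and 1 without knockdown liver 3. In those fits 153 of 12473, 260 of 12392 and 267 of 12461 tested genes fell. Without knockdown liver 2 the median was -0.82.

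**Figure D1:**
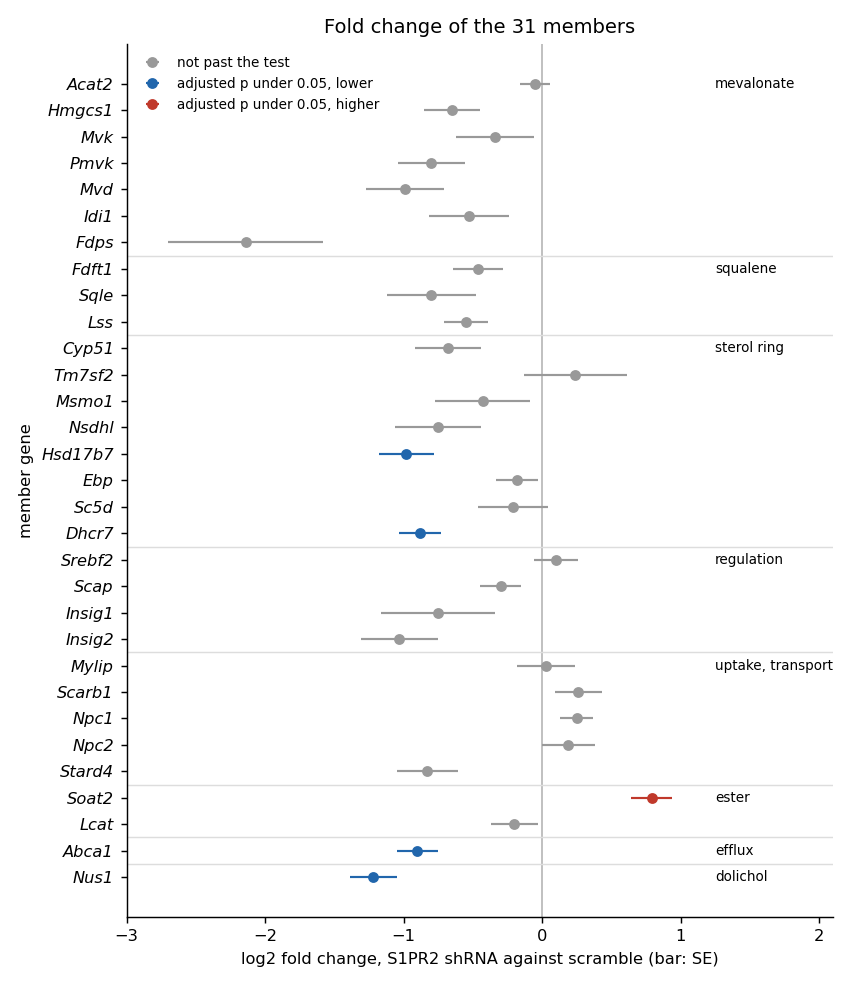
Log2 fold change of each of the 31 genes, S1PR2 shRNA against scramble livers (x axis; point: edgeR estimate, bar: SE), in pathway order from top to bottom. Most synthesis enzymes lie left of 0 with 2 past the test (blue), Fdps lies farthest left with the widest bar, and Soat2 (red) is the only gene past the test on the right.

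The 18 synthesis enzymes had a median log2 fold change of -0.60, with 17 values below 0 (5947 of all 12230 tested) and only Tm7sf2 above it. With upper-quartile or FPKM scaling Acat2 was also above 0, leaving 16 below. Of the 18, 2 fell (4.64% of all tested genes did), none rose and 16 did not pass, while 10 had an unadjusted p under 0.05, all lower (1581 of all 12230 tested). In 8 enzymes every knockdown liver lay below every scramble liver, against 16.8% of tested genes. The 13 genes outside synthesis had a median of -0.20, with 7 values below 0 and 6 above. By stage, the median was -0.65 over 7 mevalonate and isoprenoid enzymes, -0.55 over 3 enzymes of squalene formation and closure, and -0.55 over 8 enzymes of the sterol ring. Values for single livers are given below for the genes that passed, for those with the smallest p in each stage and for small groups, and those of the remaining genes were added after they had been seen.

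Farnesyl diphosphate synthase, the Fdps product, makes the branch-point isoprenoid from which sterols, dolichol, ubiquinone and prenyl groups derive. It stood at 134, 487 and 552 CPM in the scramble group and at 67.1, 123 and 76.1 CPM in the knockdown group. All knockdown livers lay below all scramble livers, but scramble liver 1 was near knockdown liver 2 and far from the other scramble livers. The means were 391 ± 225 and 88.8 ± 30.2 CPM, a 4.4-fold difference that did not pass (log2 fold change -2.14 with an SE of 0.56, edgeR adjusted p = 0.0782). Fdps passed when edgeR was run without robust estimation (adjusted p = 0.0477) and in the DESeq2 Wald test (0.00911). The coefficient of variation in the scramble group was 57.5%. Without scramble liver 1 the fold change was -2.55 with an adjusted p of 0.0110, and without any of the others the adjusted p was between 0.15 and 0.20. The deposited FPKM, which is scaled per length, shows how Fdps stood beside its pathway neighbours. The ratio of Fdps to Fdft1, the enzyme that uses its product, was 3.84, 13.9 and 12.9 in the scramble group and 3.06, 3.53 and 3.03 in the knockdown group. That to Idi1, the step before it, was 2.48, 10.7 and 9.12, then 1.75, 2.44 and 3.45. By both ratios scramble liver 1 was close to the knockdown livers, and scramble livers 2 and 3 were several times higher.

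The other mevalonate enzymes were closer between groups. Mvd, which decarboxylates mevalonate diphosphate, stood at 14.2, 22.5 and 20.5 CPM in the scramble and 6.37, 13.1 and 9.48 CPM in the knockdown livers. The groups were separate by a narrow margin between scramble liver 1 and knockdown liver 2 (means 19.1 ± 4.33 and 9.65 ± 3.37 CPM; log2 fold change -0.99 with an SE of 0.28, edgeR adjusted p = 0.0854). Hmgcs1, which condenses acetoacetyl-CoA with acetyl-CoA, was even across scramble livers at 145, 157 and 149 CPM and uneven across knockdown livers at 88.6, 127 and 72.2 CPM. Its means were 150 ± 6.17 and 95.9 ± 28.0 CPM (-0.65, SE 0.20, adjusted p = 0.0902). Pmvk, phosphomevalonate kinase, had 17.7, 29.3 and 31.9 CPM against 12.7, 18.1 and 14.7 CPM (-0.80, SE 0.24, adjusted p = 0.0900), with scramble liver 1 inside the knockdown range. Without scramble liver 1 Pmvk was at -1.02 with an adjusted p of 0.0218, and without any other liver it was between -0.94 and -0.64 and did not pass (0.135 to 0.213). Mvk, mevalonate kinase, had 16.1, 19.0 and 18.8 CPM against 10.7, 21.5 and 10.5 CPM, so that knockdown liver 2 was above every scramble liver (-0.34, adjusted p = 0.529). Idi1, the isopentenyl diphosphate isomerase, had 123, 104 and 138 CPM against 87.6, 116 and 50.5 CPM (-0.53, adjusted p = 0.316). Acat2, the cytosolic thiolase at the entry, was almost level, with 47.2, 49.1 and 58.8 CPM against 47.5, 51.4 and 51.0 CPM (-0.05, SE 0.11, adjusted p = 0.833). Acat2 had fractional counts in 6 libraries and Idi1 in 4, meaning that reads were shared with related sequences, so these values are uncertain.

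None of the 3 genes of squalene formation and closure passed, and all 3 had fold changes below 0. Sqle, squalene epoxidase, a rate-limiting oxygen-dependent step, had 80.0, 62.7 and 77.0 CPM in scramble and 38.9, 62.5 and 24.9 CPM in knockdown livers. Knockdown liver 2 was just under the lowest scramble liver, and 2.50 times knockdown liver 3 (log2 fold change -0.80 with an SE of 0.32, edgeR adjusted p = 0.193). Lss, which closes the ring to lanosterol, had 34.3, 40.1 and 35.1 CPM against 22.1, 31 and 21.7 CPM, with no overlap (-0.55, SE 0.16, adjusted p = 0.0727). Fdft1, squalene synthase, had 103, 103 and 126 CPM against 64.6, 103 and 74.4 CPM (-0.46, SE 0.18, adjusted p = 0.175), with fractional counts in 6 libraries. In knockdown liver 2 Fdft1 was level with scramble livers 1 and 2.

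Both enzymes that fell work on the sterol ring. Dhcr7, the reductase that turns 7-dehydrocholesterol into cholesterol and so draws on the precursor of vitamin D, had 65.3, 84.3 and 82.1 CPM in scramble livers and 37.9, 49.0 and 38.9 CPM in knockdown livers. Its mean went from 77.2 ± 10.4 to 41.9 ± 6.14 CPM, 54.3% of the scramble mean (log2 fold change -0.88 with an SE of 0.15, edgeR adjusted p = 0.0142). Hsd17b7, the 3-ketosteroid reductase of C4 demethylation, had 50.1, 41.8 and 40.2 CPM against 16.5, 28.3 and 22.2 CPM. Hsd17b7 went from 44.0 ± 5.33 to 22.3 ± 5.90 CPM, 50.7% of the scramble mean (-0.98, SE 0.20, adjusted p = 0.0262). In both genes the groups were well apart. The Dhcr7 call was lost without scramble liver 3 (adjusted p = 0.0523) or knockdown liver 3 (0.0565). That of Hsd17b7 was lost without scramble liver 1 (0.0735), 2 (0.0628) or 3 (0.0653) or knockdown liver 3 (0.0876), with fold changes from -1.05 to -0.88, and its count was fractional in 1 library.

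The other 6 ring enzymes did not pass. Cyp51, the lanosterol demethylase, had 82.4, 82.6 and 111 CPM against 53.7, 77.9 and 40.8 CPM with no overlap (log2 fold change -0.68 with an SE of 0.24, edgeR adjusted p = 0.142; fractional counts in 6 libraries). Nsdhl, which acts beside Hsd17b7 and Msmo1 in C4 demethylation, had 40.0, 52.8 and 73.5 CPM against 36.3, 41.5 and 21.0 CPM (-0.75, SE 0.31, adjusted p = 0.208). Msmo1, the C4 methyl oxidase, had 110, 121 and 123 CPM against 55.4, 140 and 68.4 CPM: knockdown liver 2 was the highest of all 6 livers and the others were far below (-0.43, SE 0.34, adjusted p = 0.50). Without knockdown liver 2, Msmo1 (-0.93, adjusted p = 0.0409), Hmgcs1 (-0.90, 0.0425), Lss (-0.74, 0.0454) and Mvk (-0.76, 0.0472) passed. In that edgeR fit 231 of 12473 tested genes (1.85%) passed, and Abca1 (adjusted p = 0.074) and Soat2 (0.0831) lost their calls. Ebp, the sterol isomerase, had 154, 143 and 146 CPM against 105, 151 and 133 CPM, inside the scramble range in knockdown liver 2 (-0.18, adjusted p = 0.498). Sc5d, the desaturase before Dhcr7, had 155, 265 and 214 CPM against 133, 190 and 225 CPM (-0.21, adjusted p = 0.669; fractional counts in 6 libraries). Tm7sf2, a sterol C14 reductase, varied widely in both groups, with 29.6, 44.0 and 67.1 CPM against 38.5, 78.6 and 49.2 CPM (0.24, SE 0.37, adjusted p = 0.757).

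Across the 18 enzymes, 1 knockdown liver stood above the others of its group. The values of a liver come from 1 library, so the enzymes are not independent observations of it. Knockdown liver 2 was the highest of its group in 17 enzymes, Sc5d being the exception, and in 23 of all 31 genes. Liver orders were not counted over all tested genes, so no background can be given for them. The order was liver 2, 3, 1 in 10 enzymes, liver 2, 1, 3 in 7 and liver 3, 2, 1 in 1. The median enzyme stood at 58.7%, 85.2% and 53.1% of the scramble mean in the knockdown group, and at 90.5%, 99.7% and 107% in the scramble group. Knockdown liver 2 was inside or above the scramble range in 10 enzymes, knockdown liver 1 in 2 and knockdown liver 3 in 3. Scramble liver 1 was the lowest of its group in 14 enzymes and in 20 of all 31 genes. Without knockdown liver 2 the median log2 fold change of the enzymes was -0.92, and without knockdown liver 3 it was -0.48. The hepatocyte marker sum was 79900, 121000 and 118000 CPM in knockdown livers 1 to 3, the order (2, 3, 1) that 10 of the enzymes had, and S1pr2 was 3.04, 2.20 and 2.22 CPM. Their part in the pattern was not tested.

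**Figure D2:**
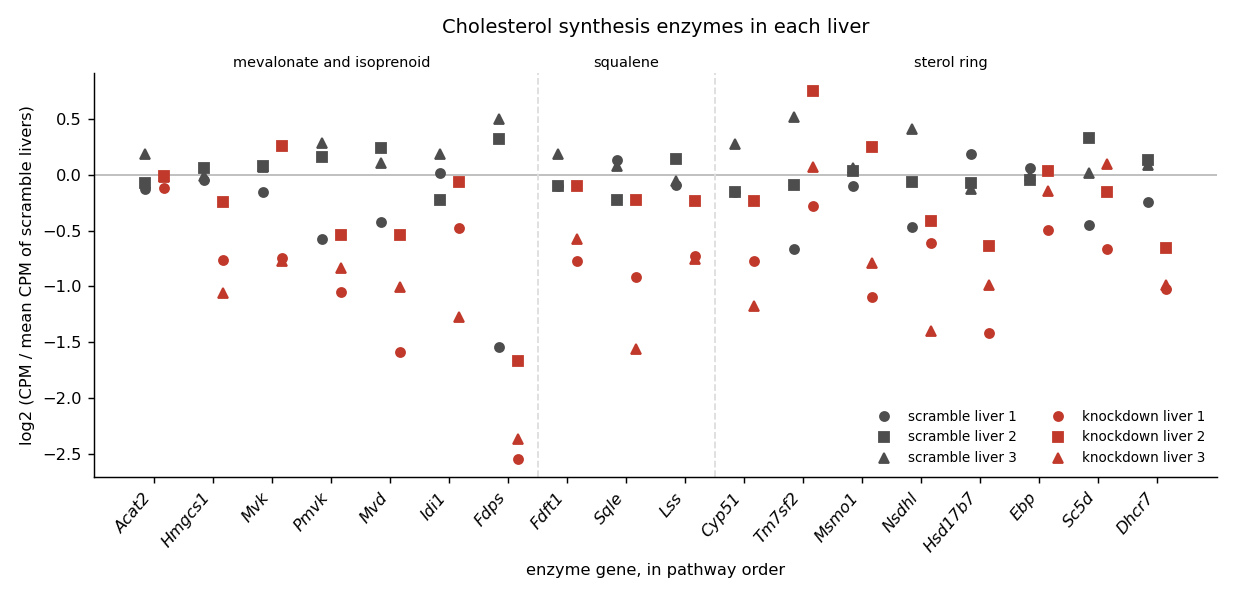
Each enzyme's CPM in each liver as log2 of its ratio to the mean of the scramble livers (y axis), with the 18 enzymes in pathway order on the x axis and 1 symbol per liver. Red squares (knockdown liver 2) are the highest red symbol in 17 of 18 columns, and in the Fdps column scramble liver 1 (dark circle) lies with the knockdown livers.

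None of the 4 regulators passed (median log2 fold change -0.53). Insig2, the retention protein with a liver-specific, insulin-repressed transcript, had 965, 424 and 649 CPM in scramble and 321, 374 and 303 CPM in knockdown livers. The groups did not overlap, and the scramble livers were far more spread, at 679 ± 272 CPM, than the knockdown livers, at 333 ± 36.8 CPM (edgeR adjusted p = 0.0692, log2 fold change -1.03, SE 0.28). Without scramble liver 2, the lowest of its group, Insig2 was at -1.29 with an adjusted p of 0.0324, and without scramble liver 1, the highest, it was at -0.69 (0.117). Insig1, itself a target of SREBP, had 120, 282 and 209 CPM against 67.6, 147 and 149 CPM (203 ± 81.1 and 121 ± 46.4 CPM; -0.75, SE 0.41, adjusted p = 0.332). The 2 genes were ordered oppositely in the scramble livers, where liver 1 had the highest Insig2 and the lowest Insig1. In FPKM, Insig2 was 8.69, 1.62 and 3.35 times Insig1 in the scramble group and 5.11, 2.75 and 2.19 times in the knockdown group, so the ratio overlapped between groups. Scap had 103, 104 and 84.5 CPM against 63.3, 85.7 and 87.3 CPM (-0.30, SE 0.15, adjusted p = 0.271). Srebf2, which encodes SREBP-2, had 43.7, 38.5 and 39.6 CPM against 36.5, 54.8 and 39.6 CPM (0.10, SE 0.16, adjusted p = 0.747), and in the knockdown group it was highest in liver 2, as most enzymes were. Srebf2 turned to -0.09 without that liver.

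Of the 5 uptake and intracellular transport genes none passed the test, and 4 had a fold change above 0 (median log2 fold change 0.19). Scarb1, the receptor that takes cholesteryl ester from HDL, had 191, 250 and 238 CPM in scramble and 219, 302 and 290 CPM in knockdown livers (log2 fold change 0.26 with an SE of 0.17, edgeR adjusted p = 0.407). Npc1, the membrane protein that releases cholesterol from lysosomes, had 172, 171 and 140 CPM against 192, 193 and 189 CPM. Every knockdown liver was above every scramble liver, by a small margin (0.25, SE 0.12, adjusted p = 0.271; fractional counts in 6 libraries). Npc2, which hands cholesterol to NPC1, had 34.7, 35.8 and 55.0 CPM against 52.8, 44.2 and 45.8 CPM (0.19, SE 0.19, adjusted p = 0.599). Mylip, the ubiquitin ligase that degrades lipoprotein receptors, had 10.2, 14.5 and 17.6 CPM against 12.2, 16.6 and 14.5 CPM (0.03, adjusted p = 0.947; fractional counts in 5 libraries), and its sign turned to -0.16 without scramble liver 1 and -0.08 without knockdown liver 2. Stard4, a soluble sterol carrier and SREBP-2 target, was the exception: 36.5, 57.6 and 45.0 CPM against 19.1, 29.1 and 29.9 CPM, with no overlap. Its means were 46.4 ± 10.6 and 26.0 ± 6.01 CPM (-0.83, SE 0.22, adjusted p = 0.0661), short of the threshold.

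Soat2 was the gene that rose. It encodes the acyltransferase with which hepatocytes and enterocytes store cholesterol as ester and load it on lipoproteins. It had 17.5, 25.5 and 24.5 CPM in scramble and 36.3, 39.3 and 41.4 CPM in knockdown livers, with a wide gap between the groups. The mean went from 22.5 ± 4.32 to 39.0 ± 2.55 CPM, a 1.73-fold difference (log2 fold change 0.79 with an SE of 0.15, edgeR adjusted p = 0.0214). Counts were fractional in 6 libraries, so part of the reads was shared. It no longer passed without scramble liver 3 (adjusted p = 0.0549) or without knockdown liver 2 or 3 (0.0831 and 0.0791), with fold changes of 0.86, 0.79 and 0.74. Soat2 was similar in all knockdown livers. Soat1, the form of macrophages, is named here after its values were seen. Soat1 was high in scramble liver 3 and knockdown liver 1 (3.57 and 4.4 CPM, against 1.23 to 1.68 CPM in the others). Those livers had the highest macrophage sums in their groups. Knockdown livers 2 and 3 had higher macrophage sums (151 and 149 CPM) than scramble livers 1 and 2 (116 and 112 CPM). Their Soat1 was 1.41 CPM in each, against 1.23 and 1.68 CPM in those scramble livers. Soat1 had only 20.1 to 86.8 counts per library, and the part of macrophages in it was not tested. Lcat, the secreted enzyme that esterifies cholesterol in plasma HDL, had 632, 457 and 533 CPM against 403, 520 and 492 CPM (541 ± 87.7 and 472 ± 60.9 CPM; -0.20, SE 0.17, adjusted p = 0.545).

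Abca1, which loads cholesterol and phospholipid on apolipoprotein A-I to form HDL, fell. It had 148, 158 and 112 CPM in scramble and 79.1, 69.4 and 75.6 CPM in knockdown livers, and the knockdown livers were close to each other. The mean went from 139 ± 24.3 to 74.7 ± 4.93 CPM, 53.6% of the scramble mean (log2 fold change -0.90 with an SE of 0.15, edgeR adjusted p = 0.0142). Without knockdown liver 2 the adjusted p was 0.0740 and without knockdown liver 3 it was 0.0508. Abca1 was lowest in knockdown liver 2, where 17 of the 18 enzymes were highest, but its 3 knockdown values had a coefficient of variation of only 6.6%.

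Nus1 fell with the smallest adjusted p of the 31 genes. Its product, the Nogo-B receptor, pairs with DHDDS to form the prenyltransferase that extends farnesyl diphosphate towards dolichol, the lipid carrier of N-glycosylation, and it also binds NPC2. Nus1 had 83.1, 55.9 and 61.3 CPM in scramble and 31, 24.1 and 30.7 CPM in knockdown livers, with no overlap. The mean went from 66.8 ± 14.4 to 28.6 ± 3.90 CPM, 42.8% of the scramble mean or 2.34-fold lower (log2 fold change -1.22 with an SE of 0.17, edgeR adjusted p = 0.00928). It passed in all 16 alternative analyses, including each liver left out, with adjusted p up to 0.0444. Counts were fractional in 6 libraries. Knockdown liver 2 was again the lowest, with a coefficient of variation of 13.7% over the 3 knockdown livers. Neither Abca1 nor Nus1 was thus highest in that liver, but ranks of 3 such close values carry no test.

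**Figure D3:**
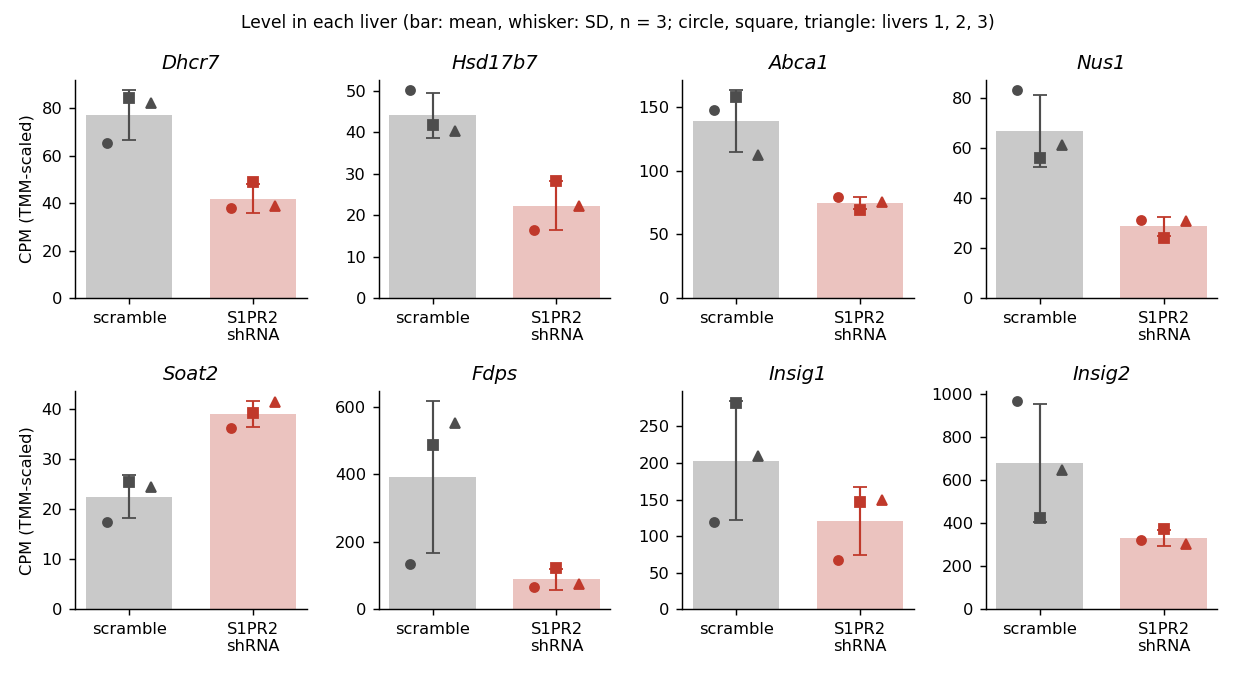
CPM of 8 genes in each liver (y axis, from 0), scramble on the left and S1PR2 shRNA on the right of each panel; bars are means, whiskers SD (n = 3), and circle, square and triangle are livers 1, 2 and 3. Dhcr7, Hsd17b7, Abca1, Nus1 and Soat2 have separate groups, Fdps and Insig2 have scramble livers spread over a wide range, and Insig1 overlaps.

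Levels between genes were compared in FPKM, which the authors scaled per kilobase. In the scramble livers Lcat was highest (378 ± 69.9 FPKM), followed by Fdps (290 ± 166) and Insig2 (260 ± 109), and these 3 did not differ beyond their spread. Sc5d (88.3 ± 21.0), Scarb1 (85.2 ± 10.1), Ebp (79.8 ± 4.95) and Insig1 (71.4 ± 26.9) came next, again within each other's spread. Lss (5.38 ± 0.330) and Mylip (4.45 ± 1.16) were lowest. In the knockdown livers Lcat (363 ± 18.6 FPKM) and Insig2 (140 ± 13.4) led and were apart, and Scarb1 followed at rank 3 (112 ± 10.2). Fdps went from rank 2 to rank 6 (72.5 ± 19.9 FPKM) and Soat2 from rank 26 (9.96 ± 1.75) to rank 16 (19.2 ± 0.961).

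**Figure D4:**
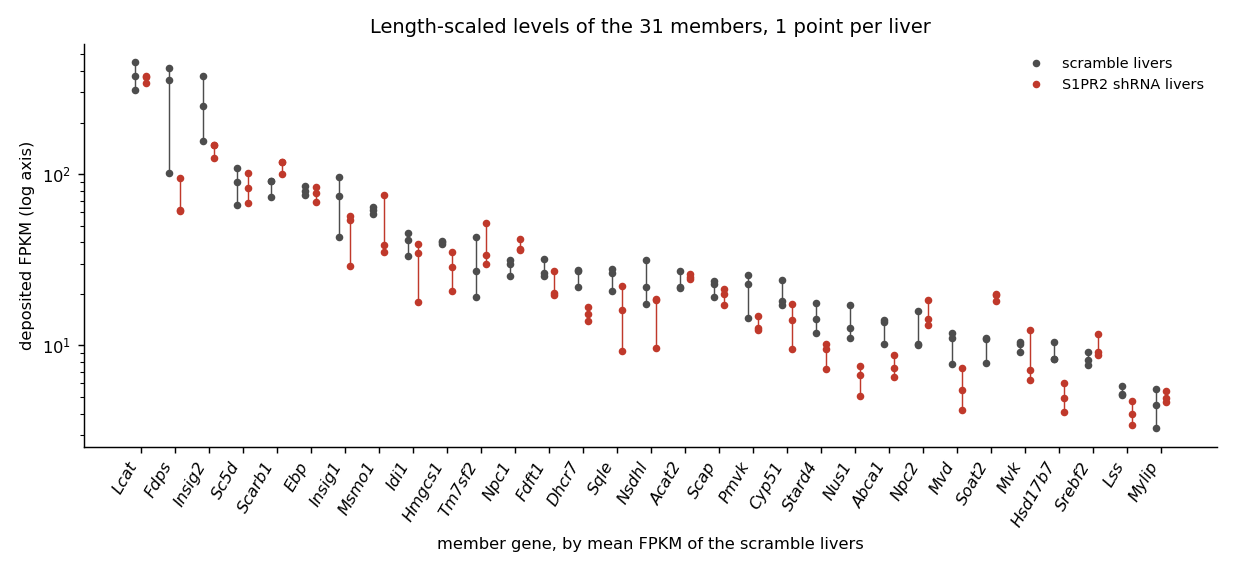
Deposited FPKM (y axis, log scale) of the 31 genes in order of the scramble mean, 1 point per liver with a line over each group's range. The genes span from about 378 FPKM for Lcat to 4.45 FPKM for Mylip in the scramble livers, and the Fdps and Insig2 scramble ranges are the widest among the high genes.

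A further 37 genes of sterol handling, a list that is not complete, were read beside the 31. Of these, 36 were tested, 4 rose (background 3.02%), 3 fell (background 4.64%) and 29 did not pass, with a median log2 fold change of -0.10. Among exporters, Abcg5 and Abcg8, the partner subunits of the transporter that secretes sterol into bile, rose. Abcg5 had 46.4, 59.1 and 54.2 CPM in scramble and 85.3, 115 and 97.3 CPM in knockdown livers (log2 fold change 0.90 with an SE of 0.14, edgeR adjusted p = 0.0130), and Abcg8 had 35.5, 55.9 and 42.9 against 70.1, 91.9 and 70.4 CPM (0.79, SE 0.19, adjusted p = 0.0449). Abcg5 and Abca1 therefore moved in opposite directions: in FPKM, Abcg5 was 1.44, 1.71 and 2.22 times Abca1 in the scramble and 4.95, 7.63 and 5.91 times in the knockdown livers. Abcg1, an exporter to HDL that macrophages and endothelium express strongly, rose from 2.39, 3.55 and 5.27 CPM to 10.2, 7.84 and 7.08 CPM (1.17, SE 0.29, adjusted p = 0.0498). Abcg1 was highest in scramble liver 3 and knockdown liver 1, the livers with the highest macrophage sums of their groups, and the part of those cells in it was not tested. The genes of the liver X receptors, Nr1h3 (-0.08, adjusted p = 0.764) and Nr1h2 (-0.01, adjusted p = 0.976), named after their values were seen, did not pass.

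The fourth gene of that list that rose was Rnf139, a sterol-sensing ubiquitin ligase of the endoplasmic reticulum, from 38.5, 40.4 and 38.4 CPM to 58.1, 47.8 and 51.9 CPM (log2 fold change 0.43 with an SE of 0.10, edgeR adjusted p = 0.0455; fractional counts in 6 libraries). Stard5, a sterol carrier related to Stard4, fell from an even 113, 113 and 115 CPM to 56.6, 74.1 and 76.2 CPM (-0.72, SE 0.13, adjusted p = 0.0192; fractional counts in 5 libraries). Tmem97, the sigma-2 receptor that binds NPC1, fell from 66.5, 76.8 and 85.6 CPM to 46.5, 52.5 and 44.7 CPM (-0.67, SE 0.12, adjusted p = 0.0199). Lrpap1, a chaperone of lipoprotein receptors, fell from 34.6, 38.6 and 37.9 CPM to 24.5, 27.2 and 26.9 CPM (-0.50, SE 0.10, adjusted p = 0.0239). The groups were separate in all 7 genes that passed, which adds little, since passing the test on these livers favours separate groups. Of the 36 tested genes of the list, every knockdown liver lay below every scramble liver in 9 (background 16.8%). Every knockdown liver lay above in 6 (background 15.1%). Dhdds, the partner of Nus1, and named after its values were seen, had 28.9 ± 3.36 and 30.7 ± 3.29 CPM and did not pass (0.09, SE 0.13, adjusted p = 0.739). Each of the 7 lost its call without at least 1 liver. The highest adjusted p over all alternatives was 0.0519 for Abcg5 (0.0501 without scramble liver 3 and 0.0519 without knockdown liver 2), 0.0700 for Stard5 (without knockdown liver 2; 0.0543 and 0.0619 without scramble livers 2 and 3), 0.0781 for Tmem97, 0.0844 for Lrpap1, 0.128 for Rnf139, 0.140 for Abcg8 and 0.143 for Abcg1. Rnf139 lost its call whichever liver was left out. With 1 liver left out, Abcg1 kept its call only without scramble liver 3 (0.0405), Lrpap1 only without scramble liver 1 (0.0366), and Abcg8 only without scramble liver 2 (0.0371). Tmem97 kept it only without scramble liver 1 (0.0195) or knockdown liver 1 (0.0487). In the 10 alternatives with all livers, Abcg1 passed in 4, Rnf139 in 5, and Lrpap1 and Tmem97 in 8 each. Abcg5, Abcg8 and Stard5 passed in all 10.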

How the data were processed

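RNA from 6 mouse livers, 3 per hairpin, was measured as 1 table per library. The tables hold expected counts and FPKM deposited by the authors. The submitters' processing notes name mm9 as the build and, among the tools, RSEM 1.2.12 next to HISAT2, DESeq2 and Bowtie2. For strand handling, read filters and tool order, nothing was given in the sources used here. Reads of overlapping antisense genes can therefore not be separated. Between 24.48% and 25.21% of listed genes had fractional counts, the mark of reads shared between genes. Each library held 16558775 to 17410160 counts over 14522 to 15106 genes, and chi-square per degree of freedom between libraries was 20.1 to 193.5, so no library repeats another.

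Rounded expected counts were filtered with filterByExpr (minimum count 10), scaled by the trimmed mean of M-values and tested with the edgeR 4.0.16 quasi-likelihood test (robust) in R 4.3.3, with group as the only factor and Benjamini-Hochberg adjustment over 12230 genes. The fit was also run on simulated counts with 200 changed genes and the same dispersion for every gene. The spread of the real genes differed, so that run checks the code and says nothing about the calls made here. Alternatives used other scalings and filters, the DESeq2 1.42.0 Wald test, limma-voom, edgeR without robust estimation, and limma 3.58.1 on log2(FPKM + 0.1) or log2(FPKM + 1), a replicate block, and each liver left out in turn. No pairing by replicate number was seen: same-numbered livers' deviations correlated at -0.062, 0.222 and -0.116, and those of differently numbered livers at -0.301 to 0.301. With 3 livers per group these correlations cannot exclude a pairing. The gene set and the lists were chosen with earlier results of these data known. The rule for giving the value of every liver took genes past the adjusted p of 0.05, the 2 of each role with the smallest p, all of roles of 3 or fewer and, from the list of other sterol genes, those that passed. The remaining members were added after their values were seen. A few sterol genes are not reported here. Motifs were searched on both strands of RefSeq promoter windows.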

Additional observations from a re-analysis of the deposited data

How the results depend on the processing

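Nus1 passed in all 16 alternatives, and 27 of the 31 genes kept their sign in all of them. The exceptions, none past the test, were Acat2 (0.01 with upper-quartile factors, 0.10 on FPKM with either pseudocount), Tm7sf2, Srebf2 and Mylip. With 1 liver left out their log2 fold changes ran from -0.11 to 0.05 (Acat2), -0.10 to 0.59 (Tm7sf2), -0.09 to 0.22 (Srebf2) and -0.16 to 0.22 (Mylip). The number of the 31 genes that fell was 11 with the DESeq2 Wald test, which added Fdps, Hmgcs1, Insig2, Lss, Mvd, Pmvk and Stard4. It was 8 with the replicate block, and 5 with edgeR without robust estimation, which added Fdps (adjusted p = 0.0477). Of all 12230 tested genes, 850, 466 and 559 fell in these 3 fits. Without each liver in turn, 1 to 7 of the 31 genes fell and 0 to 1 rose, while 153 to 377 of all tested genes fell. The block lost Hsd17b7 (adjusted p = 0.0602) and added Insig1, Lss, Mvd, Pmvk and Stard4. No pairing by replicate number was seen, so neither the calls lost there nor those added are relied on. The median log2 fold change of the 31 genes was -0.41 and -0.39 on FPKM with a pseudocount of 0.1 and 1, and -0.82 to -0.41 with each liver left out. That of the 18 enzymes was -0.48 on FPKM with a pseudocount of 1, and -0.92 to -0.48 with each liver left out. On FPKM the median of all genes itself stood at 0.157 and 0.102, against 0.012, and 30.8% and 30.6% of the calls were lower, against 60.6% with the main scaling and 48.5% with upper-quartile factors. S1pr2 stood at -1.11 with the replicate block (adjusted p = 0.0684), at -0.90 (0.0677) and -0.54 (0.0684) on FPKM, and at -1.29 to -0.95 with each liver left out. The number of genes called overall was 1466 with DESeq2 and 937 with edgeR, and 231 without knockdown liver 2. The cause of these differences was not tested. With 3 livers per group, changes near the SE of 0.11 to 0.56 of these genes cannot be resolved.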
